A study of Mus musculus with 17 samples.

Results

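JAK kinases (Jak1, Jak2), STAT transcription factors (Stat3, Stat5a, Stat5b) and the SOCS-family inhibitors that restrain them (Socs1, Socs2, Socs3, Cish) were followed through RUNX1 and CHD7 ChIP-seq peaks in a mouse myeloid progenitor line. They were 9 of the 21883 protein-coding genes in the RefSeq table for GRCm38.p6 (mm10). All peaks of the 16 deposited lists that overlapped the body of one of these genes or the 50 kb on either side were taken, and peaks that overlapped by at least 1 bp were merged. This gave 135 sites of 90323 in the genome. RUNX1 had a peak in at least 1 library at 50 of them, in 1 library only at 12 (background 18.4% of RUNX1 sites in the genome). CHD7 had a peak at 113, in 1 library only at 50 (background 59.4%). Inside the bodies of the 9 genes lay 69 of the sites, 28 lay in another gene and 38 outside genes; the gene table gives no exons or introns.

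The cytokine receptors of this pathway lack kinase activity of their own, and JAK kinases bound to their tails phosphorylate the receptor and then the STATs, which move to the nucleus and bind DNA. Genes switched on by STATs include Cish and the SOCS genes, whose protein products bind the receptor or the kinase and damp the signal, so that the pathway carries its own brake. In myeloid progenitors this pathway carries the signals of growth factors such as interleukin 3 and GM-CSF (STAT5) and G-CSF (STAT3).

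The cells were 416B, stably transfected with a tetracycline transactivator and silencer and with a plasmid placing Cbfb-Myh11 (CM), the fusion made by inversion of chromosome 16 in acute myeloid leukaemia, and mCherry under a tetracycline responsive element. Control cells carried a version of that plasmid without CM. Doxycycline (1 ug/ml for 24 hours) was given or withheld in each, which gave the conditions Control -Dox, Control +Dox, CM -Dox and CM +Dox, with 2 RUNX1 and 2 CHD7 libraries of each. Cells with the doxycycline-inducible fusion were made to express it only in CM +Dox. Per the labels, cultures were grown from selected single-cell clones, so the construct and the clone cannot be told apart, and nothing in the labels says that the 2 replicates came from separate cultures. Every p-value below therefore measures only how much these libraries spread, a spread that may be technical.

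RUNX1 lists held 12603 to 16163 peaks in the 6 libraries without the fusion and 8140 and 9710 for CM +Dox, and CHD7 lists held 16323 to 37698 peaks. The lists ended at different p-value thresholds, 1e-09 in 5 RUNX1 lists, 1e-07 in 3 and 0.01 in the CHD7 lists, and read depth is unknown. For the library labelled Control -Dox RUNX1 replicate 1 the peaks are named with a +Dox tag, which goes against the label, and some lists labelled +Dox lack the tag. In what follows a site is named by its gene and by the distance of its midpoint from the nearest RefSeq start of that gene, with negative values upstream. A percentile rank is the place of a peak among the peaks of its own list by the score the authors deposited, the strongest peak ranking highest, and 0 stands for a library without a peak. Lists of unequal length give ranks that show no change by themselves. Therefore ranks were also taken after each list was cut to about the length of the shortest list of its antibody. Ties at the last score were kept, so these shortened lists held 8140 to 8205 RUNX1 peaks and 16323 to 20929 CHD7 peaks. For CHD7 they thus remained unequal. Ranks are described without a test.

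Around the 9 genes together, RUNX1 peaks were fewer in CM +Dox in step with the shorter lists. RUNX1 was called at 24, 27, 25, 24, 28 and 39 of the sites in the 6 libraries without the fusion and at 16 and 19 for CM +Dox. Per 1000 peaks of the list this was 1.98 ± 0.245 (SD, n = 6) sites without the fusion and 1.96 ± 0.00626 (SD, n = 2) with it, a difference within the spread between libraries. CHD7 was called at 1.58 ± 0.194 (SD, n = 6) and 1.41 ± 0.0759 (SD, n = 2) sites per 1000 peaks.

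RUNX1 was called in all 6 libraries without the fusion at 14 sites. Of these, 3 (21.4%) had no peak in either CM +Dox library and are called lost, against a background of 27.7% of 8436 such sites in the genome. A peak was called in 1 CM +Dox library at 3 sites (background 15.3%) and in both at 8 (57.1%, background 56.9%). The lost share lies near the background and is not a result about these genes. By position, the 3 lost sites lay around inhibitors, 1 at Cish and 2 at Socs3. None of the 4 sites at the kinases or the 2 at the STATs was lost, while of the 8 at the inhibitors 3 were lost, 2 were called in 1 CM +Dox library and 3 in both. With 14 sites these counts describe the genes and were not tested. The number of lost sites was 4 without the Control -Dox library whose tag goes against its label, and 5 without Control +Dox replicate 1, without CM -Dox replicate 1 or without CM +Dox replicate 2. In shortened lists the count was 1, another Cish site, and none of these 3 was lost, since fewer libraries without the fusion held them. With flanks of 5 kb the count was 1 and with flanks of 100 kb it was 7.

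CHD7 was called in all 6 libraries without the fusion at 10 sites, and in both CM +Dox libraries at every one of them (background 84.1%). It was lost at 0 (background 3.65%). With shortened lists, 2 sites, both in Stat3, met the rule for CHD7 loss and are described with that gene. Both antibodies called 2 sites in all 16 libraries, in Jak1 (30.7 kb downstream of its start) and at the Stat3 promoter. RUNX1 alone was called in all of its 8 libraries at 8 of 50 sites (background 22.9%), and these were 2 of those 8 (background 35.4%). At 3 of the 10 sites CHD7 held in all of its 8 libraries, at Jak1, Stat3 and Cish, RUNX1 had no peak in any library (background 23.0%).

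**Figure D1:**
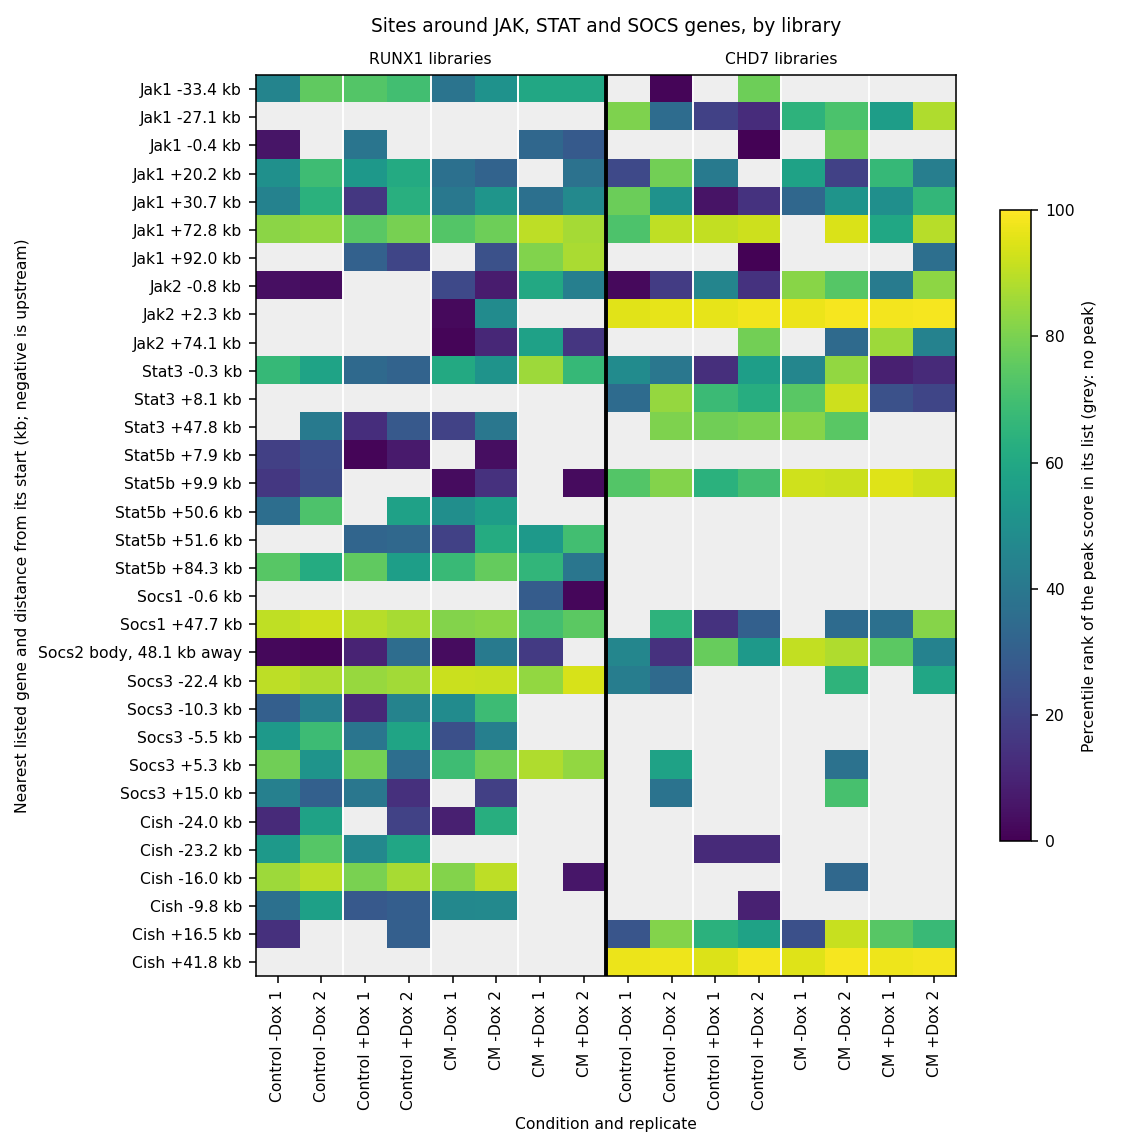
Percentile rank of the peak score (colour, 0 to 100; grey means no peak) for the sites around the listed genes that RUNX1 held in at least 4 libraries or gained, or that CHD7 held in all 8, with 1 column per library, RUNX1 on the left and CHD7 on the right. The sites upstream of Cish and those at Socs3 -5.5 and -10.3 kb have no RUNX1 colour in the CM +Dox columns but for 1 dark cell at Cish -16.0 kb, while the strongest CHD7 sites at Jak2 (+2.3 kb) and Cish (+41.8 kb) keep the brightest colour in all 8 CHD7 libraries.

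**Figure D2:**
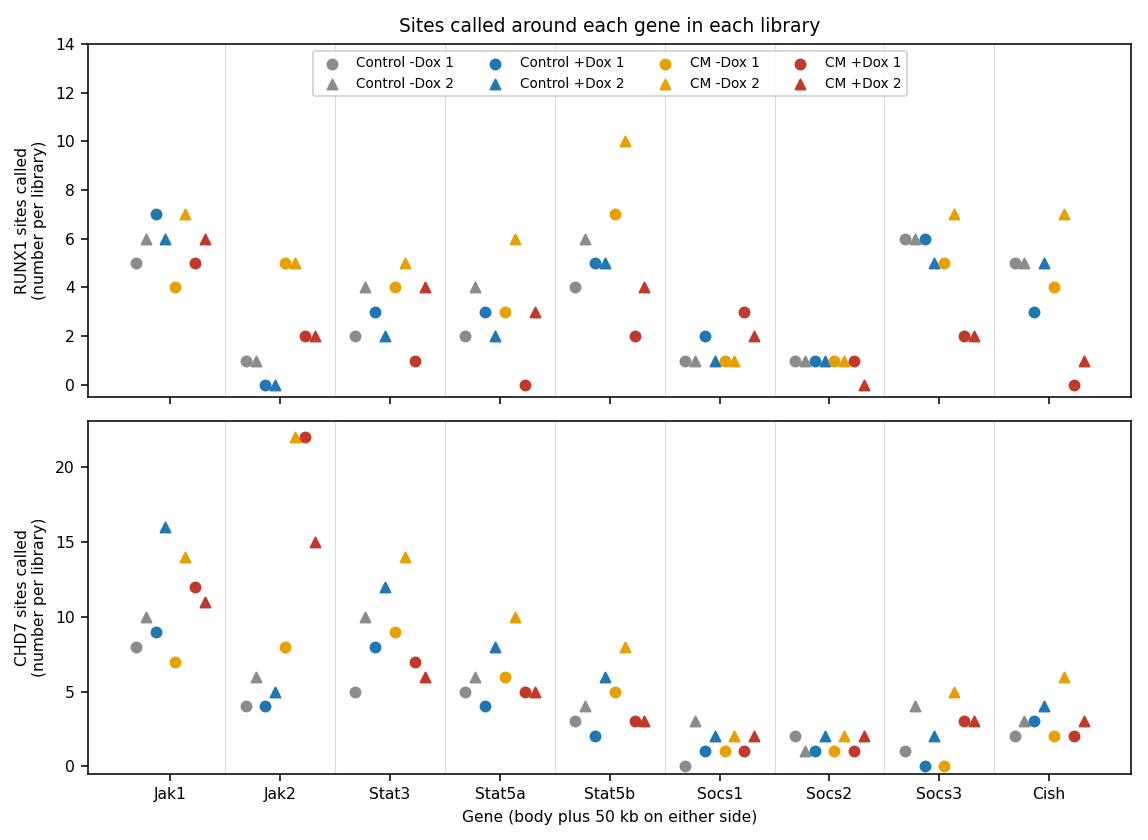
Number of RUNX1 sites (top) and CHD7 sites (bottom) called in each library in the body of each gene plus 50 kb on either side, with colours for conditions, circles for replicate 1 and triangles for replicate 2. At Cish and Socs3 the 2 CM +Dox libraries hold 0 to 2 RUNX1 sites against 3 to 7 in the others, and at Jak2 the CHD7 count separates the libraries of the fusion clone from the control libraries.

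Jak1 encodes the kinase shared by the common gamma chain, gp130 and interferon receptors. Its 113309 bp body (chr4:101151974-101265282) and flanks held 30 sites, 9 of them with RUNX1 in at least 1 library and 28 with CHD7. The strongest RUNX1 site of the gene, at +72.8 kb inside the gene body (chr4:101191911-101192850), ranked at 82.5 and 83.7 for Control -Dox, 74.3 and 79.5 for Control +Dox, 73.4 and 78.1 for CM -Dox, and 89.9 and 86.5 for CM +Dox. Both CM +Dox ranks lay above all 6 others, here and in shortened lists, where they were 89.9 and 83.9 against 56.3 to 72.2. Of the 14 sites called in both CM +Dox libraries, 7 ranked above all 6 libraries without the fusion in the deposited lists (background 25.2%), and of 12 such sites in shortened lists 7 did (background 48.6%). Those in the deposited lists were Jak1 +72.8 and +92.0 kb, Jak2 -0.8 and +74.1 kb, Stat3 -0.3 kb, Socs3 +5.3 kb and Socs1 -0.6 kb. Jak2 lies on chromosome 19, whose share of peaks differed between the clones. Socs1 -0.6 kb met the rule for gain, which fixes its place.

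A second Jak1 site stood out in CM +Dox. At +92.0 kb (chr4:101172742-101173622) RUNX1 was not called in either Control -Dox library, ranked at 30.9 and 21.0 for Control +Dox, 0 and 24.7 for CM -Dox, and 81.1 and 87.2 for CM +Dox. The 2 groups did not overlap. With shortened lists the site was called in CM +Dox only, at 81.1 and 84.8. The call itself differed less, since 3 of the 6 other lists held a weak peak there (exact permutation test, unadjusted p = 0.464).

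The other Jak1 sites overlapped between the groups. At +30.7 kb (chr4:101234046-101234939), RUNX1 ranked between 16.1 and 63.9 without the fusion and at 37.1 and 46.9 with it, and CHD7 at 5.3 to 77.5 and at 49.7 and 66.2, and the site was called in all 16 libraries. At -33.4 kb (chr4:101298216-101298949), in no gene, RUNX1 ranked at 38.5 to 75.5 and at 59.9 and 60.0. At +20.2 kb (chr4:101244718-101245381) the peak was absent from CM +Dox replicate 1 and ranked at 37.7 in replicate 2, inside the range of 31.8 to 68.9 without the fusion. No Jak1 site was thus lost. CHD7 was called in all of its 8 libraries at +30.7 kb and, without RUNX1, at -27.1 kb (chr4:101291539-101293188).

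The Jak1 promoter, 300 bases from RefSeq (GRCm38.p6, chr4:101265174-101265473, minus strand), overlapped a site (chr4:101265211-101266076) called by RUNX1 in 4 libraries and CHD7 in 2. It is shown, with those of Jak2 and Stat3, because RUNX1 had a peak there in both CM +Dox libraries. Promoters were searched on both strands for the RUNX core (TGTGGT or TGCGGT), present in 22.4% of 32851 RefSeq promoters of this length, and for the STAT element TTCNNNGAA, present in 8.3%. Capitals mark a match, and none lay in these 3. The Jak2 promoter lies at chr19:29251553-29251852 on the plus strand and the Stat3 promoter at chr11:100939491-100939790 on the minus strand.
Jak1 promoter: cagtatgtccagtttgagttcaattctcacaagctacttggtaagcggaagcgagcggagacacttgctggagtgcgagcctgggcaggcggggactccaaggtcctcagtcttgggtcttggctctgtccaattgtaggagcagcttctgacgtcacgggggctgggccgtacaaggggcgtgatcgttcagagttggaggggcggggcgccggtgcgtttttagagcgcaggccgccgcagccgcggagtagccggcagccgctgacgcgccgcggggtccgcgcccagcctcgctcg
Jak2 promoter: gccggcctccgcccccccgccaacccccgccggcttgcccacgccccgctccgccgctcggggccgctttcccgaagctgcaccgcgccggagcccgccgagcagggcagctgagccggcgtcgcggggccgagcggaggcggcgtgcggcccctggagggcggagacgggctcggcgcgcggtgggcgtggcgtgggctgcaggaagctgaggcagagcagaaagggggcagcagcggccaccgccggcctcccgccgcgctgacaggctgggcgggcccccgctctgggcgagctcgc
Stat3 promoter: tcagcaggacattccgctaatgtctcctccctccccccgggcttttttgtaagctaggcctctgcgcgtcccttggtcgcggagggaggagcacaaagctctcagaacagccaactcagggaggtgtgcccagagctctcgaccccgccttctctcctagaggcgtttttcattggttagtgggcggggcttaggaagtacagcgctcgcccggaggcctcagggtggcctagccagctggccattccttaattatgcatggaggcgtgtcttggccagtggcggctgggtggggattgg
At this Jak1 site RUNX1 ranked at 5.6 in Control -Dox replicate 1, 38.8 in Control +Dox replicate 1, and 33.3 and 28.2 for CM +Dox, and had no peak in the other 4 libraries. The ranks overlap, since one control library lay above both CM +Dox libraries. Shortened lists kept only the CM +Dox peaks, at 33.3 and 14.4. Of the 7 sites that ranked above all 6 in shortened lists, 4 overlapped a RefSeq promoter (background 50.7%): those of Jak1, Jak2, Stat3 and Ghdc, a neighbour of Stat5b.

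Jak2 encodes the kinase of the interleukin 3, GM-CSF, erythropoietin and thrombopoietin receptors. Its body (chr19:29251803-29313095) and flanks held 36 sites, 35 with CHD7 and 6 with RUNX1, and no RUNX1 site was called in all 6 libraries without the fusion. Results at this gene stand beside a difference of its whole chromosome between the clones. Chromosome 19 carried 7.85% to 8.29% of CHD7 peaks in the 4 libraries of the fusion clone and 2.27% to 2.86% in the 4 control libraries, and 4.57% to 5.22% against 2.83% to 3.18% of RUNX1 peaks. Both clones showed their own share with and without doxycycline. On the chromosomes of the other 8 genes the shares of the clones overlapped or differed by less than 1 percentage point.

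**Figure D3:**
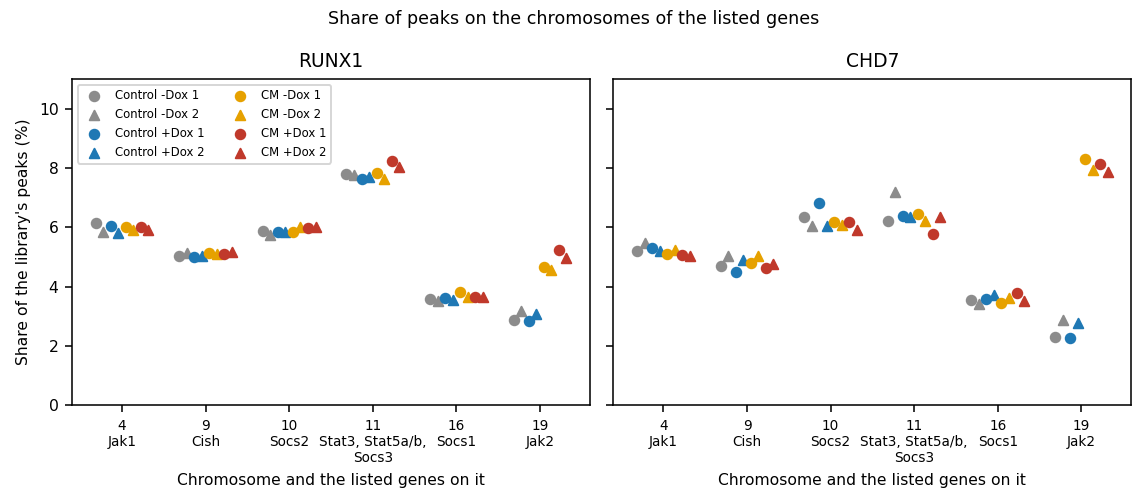
Share of the peaks of each library (%) on each chromosome that carries a listed gene, RUNX1 on the left and CHD7 on the right, with colours for conditions, circles for replicate 1 and triangles for replicate 2. On chromosome 19, the chromosome of Jak2, the 4 libraries of the fusion clone lie above the 4 control libraries for both antibodies.

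The number of CHD7 sites around Jak2 followed that split. It was 4, 6, 4 and 5 in the control libraries, 8 and 22 for CM -Dox and 22 and 15 for CM +Dox. As a share of the CHD7 peaks on chromosome 19, the Jak2 window held 0.550% to 0.882% in the fusion clone and 0.670% to 1.08% in control cells, ranges that overlap. For RUNX1 that share was 0.415% to 0.799% in the fusion clone and 0% to 0.247% in control cells, from 2 to 5 and 0 to 1 peaks, and these ranges did not overlap. Of all CHD7 sites, 3 of 113 were called in both CM +Dox libraries and in none of the 6 others (background 1.39%), and all 3 lay at Jak2. Each had an exact permutation p of 0.0357, which follows from this rule of choice. The Benjamini-Hochberg adjusted p was 0.888 over 84765 CHD7 sites. The 3 sites lay at -28.9 kb, +16.7 kb and +84.8 kb, and their ranks in CM +Dox replicate 2 were all 5.7, near the end of that list. The count was 6 without CM +Dox replicate 1 and 12 without replicate 2. No CHD7 site was gained in shortened lists, and the part of the chromosome 19 difference in these 3 was not tested.

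The highest-ranked CHD7 site of Jak2 lay just inside the gene. At +2.3 kb (chr19:29253621-29254638) it ranked at 95.6 and 96.4 for Control -Dox, 96.3 and 97.7 for Control +Dox, 97.1 and 98.5 for CM -Dox, and 98.4 and 98.6 for CM +Dox. All 8 libraries place the peak among their strongest. RUNX1 was called there only in CM -Dox, at 2.4 and 48.2, and likewise only in CM -Dox at -10.6 kb (chr19:29240521-29241838), at 48.1 and 65.4.

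At the Jak2 promoter itself, whose sequence is given with that of Jak1, the site (chr19:29250168-29251859) was called by CHD7 in all 8 libraries. RUNX1 ranked there at 4.1 and 3.4 for Control -Dox, had no peak in Control +Dox, and ranked at 21.9 and 7.5 for CM -Dox and at 60.3 and 43.3 for CM +Dox. The CM +Dox libraries lay above all others, and in the shortened lists only they had a RUNX1 peak (60.3 and 32.4). CHD7 ranks at the same site ran from 2.4 to 82.3 without the fusion and were 41.7 and 82.9 with it. The libraries of the fusion clone exceeded the control libraries before doxycycline too, and the part of the clone or of chromosome 19 in the further step on induction was not tested.

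The 3 STAT genes lie next to each other on chromosome 11, and their windows share sites: 17 of the 135 sites fell into more than 1 window. Stat3 encodes the factor activated by G-CSF and interleukin 6. Its promoter site (chr11:100939318-100940311), with the sequence given above, was called by both antibodies in all 16 libraries. RUNX1 ranked at 66.8 and 57.9 for Control -Dox, 34.0 and 31.9 for Control +Dox, 60.9 and 51.5 for CM -Dox, and 85.5 and 67.0 for CM +Dox. CHD7 ranked at 48.2 and 39.7, 13.5 and 55.9, and 46.0 and 83.8 in the same 3 conditions without the fusion, and at 8.9 and 11.9 for CM +Dox.

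The 2 antibodies ranked the Stat3 promoter in opposite ways: RUNX1 in CM +Dox lay above all 6 other libraries and CHD7 below all 6. For both antibodies CM +Dox replicate 2 did so only just (RUNX1 67.0 against 66.8, CHD7 11.9 against 13.5). The shortened lists gave RUNX1 ranks of 0 to 42.9 without the fusion and of 85.5 and 60.6 with it. CHD7 was then called in all 6 libraries without the fusion, at 13.5 to 70.8, and in neither CM +Dox library, whose shortened lists held 18688 and 16749 peaks. A second CHD7 site inside the gene ranked in the same order. At +8.1 kb (chr11:100930857-100931994), without RUNX1, CHD7 ranked at 34.8 to 92.5 without the fusion and at 24.7 and 21.0 with it, and in shortened lists neither CM +Dox library held it. These were the 2 sites below all 6 among the 10 that CHD7 held without the fusion (background 9.10%); in shortened lists they were 2 of 6 (background 19.4%).

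CHD7 did not rank lower in CM +Dox at every Stat3 site. At +12.0 kb (chr11:100927253-100927822) it ranked at 0 to 64.7 without the fusion and at 96.2 and 87.7 with it, and the ranks also separated in shortened lists (0 to 64.7 against 93.2 and 76.7). This was 1 of 7 sites of 28 where CHD7 ranked above all 6 in the deposited lists (background 22.8%) and 1 of 3 of 14 in shortened lists (background 16.9%). The others in the deposited lists were Socs3 -20.1 kb and Jak2 -28.9, -22.7, +16.7, +20.8 and +84.8 kb. In shortened lists they were Jak2 -22.7 and +20.8 kb. Jak2 lies on chromosome 19, whose CHD7 share was higher in the fusion clone. At Stat3 +47.8 kb (chr11:100891523-100891948), near the 3' end of Stat3, neither antibody had a peak in CM +Dox. RUNX1 had been called there in 5 of the other 6 libraries, at 13.1 to 40.9, and CHD7 in 5 of 6, at 74.4 to 81.7. In shortened lists RUNX1 had no peak there in any library, so that setting showed no RUNX1 difference. CHD7 was still called in 5 of 6, at 53.8 to 81.2, and in neither CM +Dox library.

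Stat5a and Stat5b encode the pair of STAT5 proteins, the main signal carriers downstream of JAK2 in myeloid cells. RUNX1 was called in all 8 libraries at +84.3 kb from a Stat5b start (chr11:100738118-100738501), at the promoter of the neighbouring gene Rab5c. It ranked at 73.9 and 61.5 for Control -Dox, 75.7 and 55.9 for Control +Dox, 67.7 and 76.5 for CM -Dox, and 66.0 and 39.4 for CM +Dox. The groups overlapped, and CHD7 had no peak there in any library. In Stat5b at +9.9 kb (chr11:100839953-100841431), a site within the windows of all 3 STAT genes, CHD7 was called in all 8 libraries. It ranked at 63.9 to 81.4 in the control libraries and at 92.1 to 95.2 in the 4 libraries of the fusion clone, those with and without doxycycline overlapping. How many CHD7 sites of the genome split by clone in this way was not counted.

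Around Stat5a no RUNX1 site was called in all 6 libraries. The RefSeq promoters of Stat5a and Stat5b overlapped no RUNX1 peak in any library. Of the other Stat5b sites, 3 were called in both CM -Dox libraries and neither Control -Dox library. At 1 of them, +7.4 kb (chr11:100843023-100843403), RUNX1 ranked at 76.6 and 86.1 for CM -Dox, 0 and 22.8 for CM +Dox and 0 in all 4 control libraries.

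Cish encodes the inhibitor induced by STAT5 that binds cytokine receptors, and its gene (chr9:107296659-107302784) had the densest RUNX1 sites of the 9, with 10 in a window of 106 kb. Upstream of it 8 of these lay inside the neighbouring gene Mapkapk3, which encodes a stress kinase, so that a site there can belong to either gene. The strongest, at -16.0 kb (chr9:107280235-107281145), ranked at 85.4 and 89.8 for Control -Dox, 79.9 and 87.0 for Control +Dox, 81.4 and 90.0 for CM -Dox, and 0 and 6.0 for CM +Dox. A peak of the upper ranks in 6 lists was absent from 1 CM +Dox list and near the bottom of the other. Shortened lists placed it at 66.3 to 82.7 without the fusion and in neither CM +Dox library, which made it the only lost RUNX1 site under that setting.

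At -9.8 kb (chr9:107286677-107287027) the Cish site met the rule for loss in the deposited lists. RUNX1 ranked at 36.8 and 56.8 for Control -Dox, 28.1 and 29.7 for Control +Dox, 46.7 and 46.9 for CM -Dox, and had no peak in CM +Dox. The call differed at the smallest p the 28 choices of 2 of 8 libraries allow (exact permutation test, two-sided p = 0.0357), and it did not pass adjustment over 20991 RUNX1 sites (Benjamini-Hochberg adjusted p = 0.298). In the genome 2516 RUNX1 sites reached that unadjusted p and 0 an adjusted p under 0.05, since 0.298 was the smallest adjusted value of any site. With libraries permuted only within their replicate number (replicate block) the p of such a site was 0.0625. The site was called in only 2 shortened lists, both without the fusion.

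Next to each other further upstream lay a pair of Cish sites, 1 of which differed by clone, a split that was not counted over the genome. At -23.2 kb (chr9:107273187-107273717) RUNX1 ranked at 54.1 and 73.6 for Control -Dox and at 46.5 and 59.2 for Control +Dox, and had no peak in the 4 libraries of the fusion clone, induced or not. At -24.0 kb (chr9:107272348-107272986) it was called in 5 of the 6 libraries without the fusion, at 8.6 to 62.5, and in neither with it. CHD7 was nearly absent from these upstream sites and sat on the other side of the gene. At +41.8 kb (chr9:107338247-107338586, in Hemk1) it ranked at 94.7 to 98.6 in all 8 libraries without RUNX1 in any, and at +16.5 kb (chr9:107312494-107313726) at 24.3 to 91.6 in all 8.

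The Cish promoter (RefSeq, GRCm38.p6, chr9:107296409-107296708, plus strand) is shown because it carries matches to the STAT element while no RUNX1 or CHD7 peak overlapped it in any of the 16 libraries. STAT binding to these matches was not measured.
Cish promoter: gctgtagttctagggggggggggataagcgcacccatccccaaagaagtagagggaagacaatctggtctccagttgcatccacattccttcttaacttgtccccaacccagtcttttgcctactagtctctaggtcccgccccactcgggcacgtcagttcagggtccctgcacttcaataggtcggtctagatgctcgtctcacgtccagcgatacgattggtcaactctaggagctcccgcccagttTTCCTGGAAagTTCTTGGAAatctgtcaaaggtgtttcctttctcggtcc
The capitals mark TTCCTGGAA at the start itself and TTCTTGGAA 11 bases further on. At least 2 such elements were present in 0.46% of promoters, and no RUNX core lay in this window. The Socs3 promoter held 1 STAT element, TTCTTAGAA at position -154 from the start, and the Stat5a promoter 1 RUNX core; neither overlapped a peak of either antibody.

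Socs3 encodes the inhibitor of gp130 and G-CSF receptor signalling and is induced by STAT3. Its short body (chr11:117966079-117970336) and flanks held 8 RUNX1 sites, 4 of them in all 6 libraries without the fusion. The 2 nearest upstream were lost. At -5.5 kb (chr11:117974752-117975042) RUNX1 ranked at 54.0 and 68.6 for Control -Dox, 38.8 and 58.5 for Control +Dox, 24.5 and 43.2 for CM -Dox, and had no peak in CM +Dox. At -10.3 kb (chr11:117979461-117979836) it ranked at 30.2 and 43.3, 11.3 and 44.7, and 48.1 and 68.7 in these 3 conditions, and again had no peak in CM +Dox. Both lie outside genes and neither had CHD7 in any library. Each gave the same exact permutation p of 0.0357 (adjusted p = 0.298), which follows from the rule for loss, and 0.0625 with the replicate block. CHD7 was absent from all of its libraries at 2 of the 3 lost sites (background 26.5%).

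On either side of that pair RUNX1 was called in all 8 libraries. At -22.4 kb (chr11:117991491-117992127, in Pgs1) it ranked at 84.7 to 92.0 without the fusion and at 83.9 and 94.0 with it. At +5.3 kb (chr11:117963409-117964755), downstream of the gene, it ranked at 78.5 and 51.9 for Control -Dox, 79.0 and 36.1 for Control +Dox, 68.8 and 77.9 for CM -Dox, and 88.0 and 83.7 for CM +Dox, above all 6. In the shortened lists it also lay above, at 88.0 and 80.6 against 1.8 to 64.7. Of these 4 Socs3 sites, the 2 lost in CM +Dox had the lower mean ranks without the fusion (47.9 and 41.1, against 88.7 and 65.4). That order did not hold in every library. In Control +Dox replicate 2, +5.3 kb (36.1) ranked below both -5.5 kb (58.5) and -10.3 kb (44.7). In Control -Dox replicate 2 it ranked below -5.5 kb (51.9 against 68.6). The 2 lost sites held up less in shortened lists. At -5.5 kb the peak remained in 3 control libraries (20.9, 46.8 and 36.3) and was absent from both CM -Dox libraries as well as from CM +Dox, so under that setting the fusion clone had no peak there with or without doxycycline. At -10.3 kb it remained in 4 of the 6 libraries without the fusion, both CM -Dox libraries among them.

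**Figure D4:**
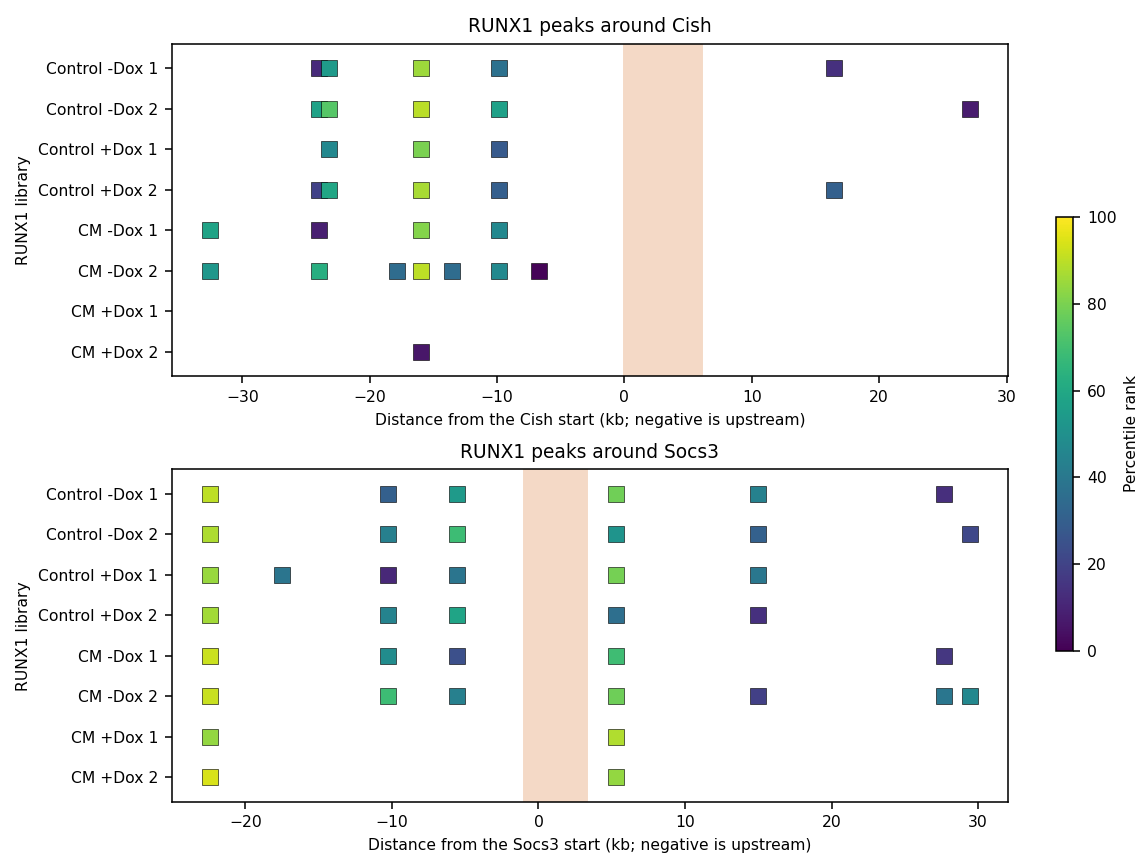
RUNX1 peaks by library around Cish (top) and Socs3 (bottom), placed by distance from the gene start in kb with upstream to the left; the shaded band is the gene body and colour is the percentile rank. In both CM +Dox rows the marks upstream of Cish are gone but for a rank of 6.0 at -16.0 kb, and at Socs3 those at -5.5 and -10.3 kb are gone while -22.4 and +5.3 kb remain.

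**Figure D5:**
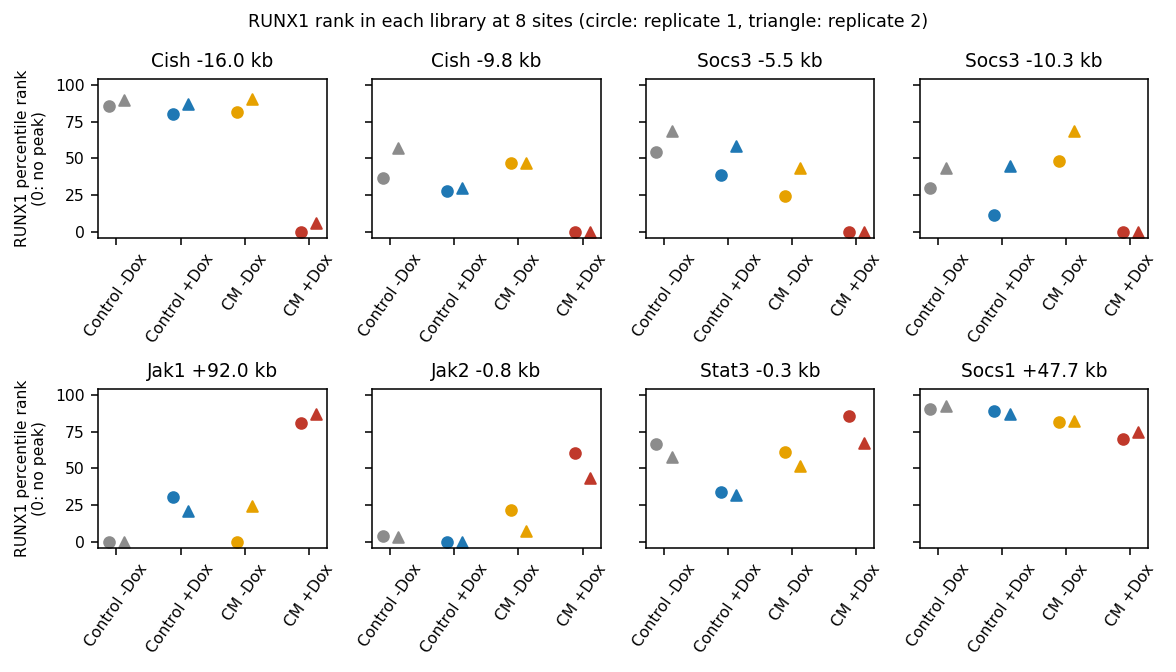
RUNX1 percentile rank (0 means no peak) in each of the 8 libraries at 8 sites, with circles for replicate 1 and triangles for replicate 2. The upper row holds Cish -16.0 kb and the 3 lost sites, at Cish and Socs3. These 4 lie between 0 and 6.0 for CM +Dox, which for the lost sites is the rule of choice. Cish -16.0 kb and Socs1 +47.7 kb were taken for the highest mean RUNX1 rank of their gene. Jak1 +92.0 kb, Jak2 -0.8 kb and Stat3 -0.3 kb were taken for the largest rise in mean rank in CM +Dox, so their high place there reflects that choice.

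Socs1, which binds and blocks JAK kinases, and Socs2, which restrains growth hormone signalling, had few sites. At Socs1 +47.7 kb (chr16:10737604-10737981), in Clec16a, RUNX1 ranked at 90.6 and 92.2 for Control -Dox, 89.1 and 87.1 for Control +Dox, 81.6 and 82.1 for CM -Dox, and 70.1 and 74.7 for CM +Dox. CM +Dox lay below all 6, but in shortened lists its ranks of 70.1 and 69.8 fell inside the range of 64.5 to 86.7. Of the 14 sites, 5 ranked below all 6 in the deposited lists (background 52.6%) and 1 of 6 in shortened lists (background 45.6%), the Cish site at -16.0 kb. Only Socs1 -0.6 kb (chr16:10786005-10786252) gained RUNX1, 1 of 50 sites (background 0.838%; exact permutation p = 0.0357, adjusted p = 0.298). That p follows from the rule for gain and was 0.0625 with the replicate block. Ranks of this site in CM +Dox were 29.2 and 1.9, the latter at the end of its list, and the site was not gained in shortened lists. The count of gained sites was 2 without either CM +Dox library. The adjacent Socs1 promoter had a RUNX1 peak in CM +Dox replicate 1 alone, at 33.7.

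Around Socs2 RUNX1 was called at a single site of the 133 kb window, 48.1 kb from the gene body (chr10:95465386-95466128) and nearer to Mrpl42. It ranked at 1.3 to 40.8 without the fusion, at 16.8 in CM +Dox replicate 1 and at 0 in replicate 2. CHD7 was called there in all 8 libraries, at 14.2 to 90.7 without the fusion and at 74.7 and 44.4 with it, and the groups overlapped for both antibodies.

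Further comparisons set 2 libraries against 2: doxycycline in control cells, the fusion clone against control cells without doxycycline, in which construct and clone cannot be told apart, and the fusion clone with against without doxycycline, in which doxycycline and fusion expression change together. For such a comparison the smallest exact permutation p is 0.333. Leaving out 1 library leaves 1 against 2 and raises most counts. Doxycycline alone in control cells went with other RUNX1 calls at 4 sites. Both Control -Dox libraries and neither Control +Dox library had RUNX1 at 2 of 34 sites (background 2.01%), the Jak2 promoter and Stat5b +9.9 kb, and the reverse held at 2 (background 0.764%), Jak1 +92.0 kb and Stat5b +51.6 kb. The control peaks behind these 4 calls ranked low, at 3.4 to 33.8, and in shortened lists no control library had RUNX1 at any of the 4. Control -Dox replicate 1 is the library whose peaks are named with a +Dox tag. The RUNX1 total of 4 was 7 without either Control -Dox replicate and 8 without Control +Dox replicate 2. For CHD7 the counts were 1 (background 2.19%) and 2 (background 2.03%) of 65, and the total of 3 was 7 to 22 with 1 library left out, 22 without Control +Dox replicate 1.

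Between the uninduced clones RUNX1 was called in both CM -Dox and neither Control -Dox library at 7 of 45 sites (background 5.92%) and the reverse at 1 (background 4.14%), Cish -23.2 kb. Of the 7, 3 lay at Jak2, on the chromosome with the higher share in that clone, 3 at Stat5b and 1 at Cish. The RUNX1 total of 8 was 15 without CM -Dox replicate 1. CHD7 was called in CM -Dox only at 3 of 84 sites (background 5.13%), 2 of them at Jak2, and in Control -Dox only at 0 (background 1.93%). The CHD7 total of 3 was 37 without CM -Dox replicate 1, the shorter list of its pair, and 10 to 13 without any of the other 3 libraries.

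Within the fusion clone RUNX1 was called in both CM -Dox and neither CM +Dox library at 11 of 44 sites (background 23.4%) and the reverse at 2 (background 2.25%), Socs1 -0.6 kb and the Jak1 promoter. The 11 were 3 each at Cish and Socs3, 2 each at Stat5b and Jak2 and 1 in Stat3, so none lay at Jak1. The RUNX1 total of 13 was 24 without CM -Dox replicate 1. For CHD7 the counts were 2 of 94 sites (background 2.19%), both around Stat3, and 4 (background 3.33%), and the total of 6 was 14 to 33 with 1 library left out, 33 without CM -Dox replicate 1. These comparisons share libraries with each other and with the 6-against-2 comparison above.

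The rest of the pathway was read in the same way. Around 20 further JAK-STAT genes (other kinases, STATs, SOCS and PIAS proteins, phosphatases and adaptors) RUNX1 was called in all 6 libraries without the fusion at 46 sites. Of these, 6 were lost (13.0%, background 27.7%), 3 were called in 1 CM +Dox library (background 15.3%) and 37 in both (background 56.9%). The most, 4 each, lay around Ptpn11 and Ptpn6 (the phosphatases SHP2 and SHP1), Sh2b3 (the adaptor LNK, which restrains JAK2), Socs7 and Stat6. The lost sites lay at Ptpn11, Sh2b3, Stat6, Ptpn2, Stat2 and Pias2, 1 each. Around 11 STAT5 target genes 17 sites were called in all 6, of which 4 were lost (23.5%), 1 each at Pim1 (a survival kinase), Mcl1 (antiapoptotic), Ccnd1 (cyclin D1) and Myc; Bcl2l1, an antiapoptotic gene, had the most, 5 sites and none lost. Set beside the background of 27.7% these shares describe the lists and were not tested. Of the sites that CHD7 held in all 6 libraries without the fusion, 0 of 33 and 1 of 9 were lost (background 3.65%).

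Over the 16 libraries, the share of the 135 sites called followed most closely that of sites around Apbb3 (Pearson r = 0.973), Sra1 (r = 0.968) and Slc35a4 (r = 0.960) among 12806 genes with at least 5 sites. None of these shares a site with the 9 genes. The points share library and list length, and longer lists call more sites everywhere, so the likeness is a description only.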

How the data were processed

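RUNX1 and CHD7 binding was measured by ChIP-seq (1% formaldehyde, fragments of 150 to 400 bp, per the labels' protocols) in 16 libraries, 2 per antibody and condition; the IgG sample was not analysed here. The submitters' processing notes name Bowtie2 2.0.6, MACS2 2.0.10 and the build mm10. Peaks were called per library, and column 5 of the deposited lists holds the −log10 p-value of a peak, a reading checked against the threshold written in the peak names; it served to order and select peaks inside 1 list. For read depth, background library and filters, the sources used here say nothing.

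Peaks on chromosomes 1 to 19, X and Y of all lists were merged where they overlapped by 1 bp, and a site was called in a library when one of its peaks overlapped it. Loss was a call in each of the 6 libraries without CM and none with CM; gain was the reverse. Each site was tested by a two-sided exact permutation of calls, adjusted (Benjamini-Hochberg) over all sites of the antibody. Simulated lists were used to check merging and calling only, not the permutation test. Gene bodies and promoters (250 bases before to 50 after a start) came from RefSeq GRCm38.p6 tables, which held 8 of the 9 promoters and no exons or introns. All 9 genes and all genes of the 2 other lists matched.

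Genes, lists and tests were chosen with earlier results of these data known. Sites were described in full where lost, gained, called in all 8 RUNX1 or all 16 libraries, or highest in RUNX1 rank for their gene; other sites named were chosen after their values were seen. Differences between replicates correlated across conditions at 0.143 to 0.443 for RUNX1 and at -0.0463 to 0.0941 for CHD7, so the replicate numbers were taken to pair the RUNX1 libraries from the values alone. Python 3.11.15, numpy 2.4.6, pandas 2.3.3, scipy 1.17.1 and matplotlib 3.10.9 were used. Alternatives were a common RUNX1 score, lists shortened to the shortest of their antibody (ties kept), the median score, other merging, a stricter overlap, windows of 5 and 100 kb, a replicate block and leaving out each library.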

Additional observations from a re-analysis of the deposited data

Results flagged for a closer look

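At 6 of the 49 pairs of a site and an antibody that were called in at least 5 libraries, all values moved one way with doxycycline in control cells and the opposite way in the fusion clone. For RUNX1 this was 3 of 23 sites, against 6.73% of 11403 sites in the genome, and for CHD7 3 of 26, against 4.93% of 13483. The difference of the 2 doxycycline steps in percentile rank, CM minus Control, was not tested in any of them. For RUNX1 it was 49.5 at the Stat3 promoter, 40.9 at the Jak2 promoter and 18.6 at Jak1 +72.8 kb, each lower with doxycycline in control cells and higher in the fusion clone. For CHD7 it was -65.1 at the Socs2 site 48.1 kb from the gene body, -129.7 at Stat3 -12.6 kb and -97.8 at Jak2 +72.0 kb, each higher with doxycycline in control cells and lower in the fusion clone. At Stat3 -12.6 kb (chr11:100951689-100952602), CHD7 ranked at 0 and 57.9 for Control -Dox, 60.9 and 95.4 for Control +Dox, 78.7 and 82.2 for CM -Dox, and had no peak in CM +Dox. At Jak2 +72.0 kb (chr19:29323217-29324301), it ranked at 0 and 67.5, 71.4 and 70.2, 84.0 and 79.5, and 13.3 and 28.7. Ranks of lists of unequal length enter all 6 values, and Jak2 lies on chromosome 19, whose share of peaks differed between the clones. RUNX1 at the Jak2 promoter fell in control cells only from ranks of 4.1 and 3.4 to no peak. In shortened lists no control library had a RUNX1 peak there, so that setting showed no step in control cells. Control -Dox RUNX1 replicate 1, whose peaks are named with a +Dox tag, enters the 3 RUNX1 values.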

How the results depend on the processing

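A common RUNX1 score of at least 9, merging within each antibody and an overlap of 0.5 of the shorter interval kept all 11 counts within 1.5 times. In shortened lists RUNX1 losses were 1 in place of 3 (Cish -16.0 kb), RUNX1 gains 3 in place of 1 (Jak1 +92.0 kb and the Jak1 and Jak2 promoters), RUNX1 differences were 1 with doxycycline alone and 8 between CM +Dox and CM -Dox, CHD7 losses were 2 and gains 0, and 0 sites were called in all 16 libraries. Above the median score RUNX1 losses were 1, RUNX1 differences 1 with doxycycline alone, 5 between the uninduced clones and 4 on induction, CHD7 gains 0, CHD7 differences between the uninduced clones 6, and sites in all 16 libraries 0. With 5 kb flanks RUNX1 losses were 1 and differences 3 between clones and 6 on induction, CHD7 gains 1 and differences 0, 1 and 2; with 100 kb flanks RUNX1 losses were 7 and differences on induction 20, CHD7 losses 1 and differences 9 between clones and 11 on induction. Leaving out 1 library gave RUNX1 losses of 3 to 5, gains of 1 to 2 and differences of 4 to 8, 11 to 15 and 15 to 24 (doxycycline, clone, induction). For CHD7 it gave losses of 0 to 2, gains of 3 to 12 (6 without CM +Dox replicate 1, 12 without replicate 2), differences of 7 to 22, 10 to 37 and 14 to 33, and 2 to 3 sites in all 16 libraries. Fewer libraries to agree on a call raise these counts by construction; other causes were not tested. With the replicate block the smallest exact p of a site rose from 0.0357 to 0.0625, so no site could pass 0.05. Read depth is unknown, so an absent peak was not detectable in that list and is not shown to be absent binding.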
